A study of Arabidopsis thaliana with 12 samples.

Results

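Transcripts were sought that differed between Cs and control plants in the same direction in shoots and in roots of Arabidopsis thaliana. None passed an adjusted p of 0.05 in limma, so no gene described below is established as differing, and not all of them concurred in every pair. All 12 arrays of the series took part, 6 of Cs plants and 6 of control plants. Each Cs array was set against the control array of the same tissue and the same replicate number in its title, which gave 6 pairs, 3 of shoots and 3 of roots. Of the 22746 probe sets that are not Affymetrix controls, 15508 were bright enough in at least 1 tissue to be tested.

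Arabidopsis thaliana, or thale cress, is the standard model plant of genetics, and the series concerns low long-term exposure to caesium-137, a radioactive isotope. The groups were Cs shoots, control shoots, Cs roots and control roots, with 3 arrays in each, and every array carries developmental stage 1.0. Cs plants are those that the titles mark cs, read as caesium-exposed from the series title. The labels used here give no ecotype, genotype, dose, length of exposure or form of the caesium, and no word on stable caesium in the control plants. Whether the replicates are separate plants is not stated, and a p-value here reflects just how these samples scatter, which could be technical scatter.

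Caesium is taken up by plants as an ion that resembles potassium, largely through potassium transporters and channels of the root, and is carried on to the shoot. The isotope emits beta and gamma radiation. In plant cells ionising radiation splits water into reactive oxygen species and breaks DNA, and the classical answers to it include antioxidant enzymes, DNA repair genes and arrest of the cell cycle. Peroxidases, extensins and other secreted proteins of the cell wall also use or answer reactive oxygen species.

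Values are MAS5 signals, the summary of the probes of one probe set on a linear scale, and differences are Cs minus control on the log2(signal + 11) scale. The 11 damps noise of dim probe sets, so that their differences are understated. Median signals of the arrays were 41.1 to 49.6. How many arrays there are sets the precision. The tissue labels matched their markers, since 7 shoot markers summed to signals of 27614 to 34271 in shoots and 357 to 2904 in roots, and 5 root markers summed to 6812 to 8636 in roots and 355 to 938 in shoots. None of these markers was listed at 0 on any array. The highest shoot marker sum among roots belonged to the Cs root of pair 2, with 2904, against 357 in its control, while the other 4 roots had 454 to 1120. Another list holds the 108 probe sets whose signal in control roots exceeded that in control shoots 16-fold or more. As a median, this root-enriched list was brighter in each Cs shoot than in its control. Its median signal was 10.8 against 7.54 in shoot pair 1, 25.3 against 16.3 in pair 2 and 48.5 against 31.2 in pair 3 (Cs first in each pair). The list was chosen partly by low signals in these same control shoots, which favours higher values in Cs shoots in advance. The comparison therefore cannot show a change in Cs shoots, and the medians of pairs 1 and 2 lay below the shoot filter level of 28.0. In bulk tissue, fewer cells of a type and less RNA per cell cannot be told apart.

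One question was which transcripts distinguish all Cs from all control arrays once tissue and pair are accounted for. No probe set passed the adjusted threshold of 0.05 in either direction (background 0% in each direction, limma with the pairs as a block), and the smallest adjusted p was 0.0992, reached by 2 probe sets. At an unadjusted p under 0.05 there were 1195 probe sets (7.71%), of which 762 were higher in Cs plants (4.91%) and 433 lower (2.79%). Evenly spread p-values would give 775.4. Without the pairs as blocks 525 had an unadjusted p under 0.05, and the arrays numbered 2 in roots did not deviate together from their group means (correlation -0.02). Among the 14 probe sets with an adjusted p under 0.2, 13 were higher and 1 was lower in Cs plants. With 5 residual degrees of freedom, the 95% interval of a shared difference reached 0.24 on the log2 scale to either side for the median probe set.

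Direction was then counted pair by pair, without a test. In 732 probe sets (4.72%) the 6 pairs concurred. The Cs array was higher in 6 of 6 pairs in 455 of them (2.93%) and lower in 277 (1.79%). A further 1756 (11.3%) were higher and 1487 (9.59%) lower in exactly 5 pairs, so that 3975 (25.6%) had at least 5 concurring pairs. Among the 11788 bright in both tissues, 318 (2.7%) were higher and 246 (2.09%) lower in 6 of 6. Most of these differences were small. The median was 0.27 among the 455 and -0.21 among the 277, and 26 of the higher and 6 of the lower group reached 1.5-fold. Of the 455, 14 were in the root-enriched list above and 6 in a list of 296 shoot-enriched probe sets chosen by the same 16-fold rule. These are 13.0% of the root list and 2.03% of the shoot list, against 2.93% of all tested probe sets. The control arrays that chose both lists also enter the pair differences, so these shares are no evidence about root-enriched transcripts. Of the 277, 2 were in the root list (1.85% of it) and 0 in the shoot list. The part of the root list's brightness in Cs shoots in these counts was not tested.

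**Figure D1:**
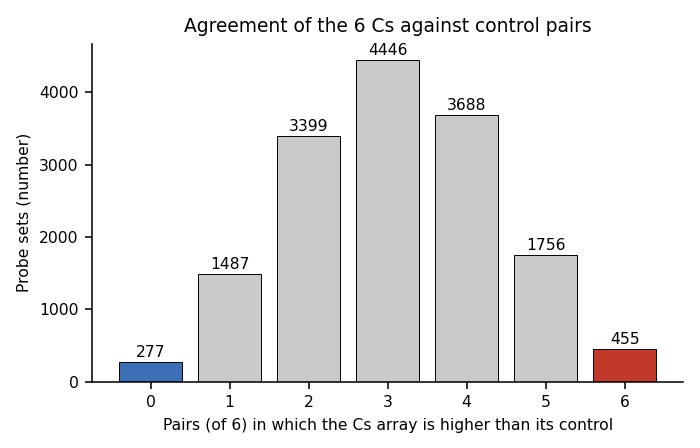
Number of tested probe sets (vertical axis) by the number of pairs, of 6, in which the Cs array had the higher signal (horizontal axis). The 455 probe sets higher in all pairs (red) outnumber the 277 lower in all pairs (blue), and 4446 were split evenly.

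The balance of the directions moved with the scaling of the arrays. As deposited, 62.2% of the probe sets with 6 concurring pairs were higher in Cs plants. After quantile normalization the counts were 347 higher and 345 lower (50.1% higher), and after centring each array on its median they were 243 higher and 542 lower (31.0% higher). Of the 455 higher probe sets, 314 remained higher in all pairs under quantile normalization and 242 under centring. Of the 277 lower ones, 236 and 268 remained lower. An excess of higher over lower transcripts is therefore not given as a result here, and the genes below are described one by one.

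Among named genes, the smallest p on the higher side belonged to AT1G64590, a member of the NAD(P)-binding Rossmann-fold dehydrogenases. Its signals were 60.7, 72.1 and 67.2 in Cs shoots, against 29.7, 40.1 and 46.5 in control shoots, and 250.1, 317 and 447 in Cs roots, against 105, 182 and 174 in control roots. All Cs arrays lay above all control arrays of their tissue. The shared difference was 0.87 ± 0.116 (SE, n = 6 pairs, limma adjusted p = 0.0992), with single pairs from 0.44 to 1.31. When only the 11788 probe sets bright in both tissues were tested, its adjusted p was 0.0470. In the limma fit without the pairs as blocks, the smallest adjusted p of any probe set was 0.99999.

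AT4G23680, of the major latex protein family of small lipid-binding proteins, had 61.4, 181 and 84.7 in Cs shoots, against 42.4, 67.5 and 50.9 in control shoots. In roots it had 50.1, 129 and 84.9 in Cs plants, against 16.9, 58.4 and 57.8 in controls. The groups overlapped in both tissues, since the lowest Cs array of each tissue belonged to pair 1, whose control was also the lowest. Its shared difference was 0.83 ± 0.129 (SE, n = 6 pairs, adjusted p = 0.127).

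AT3G27200 belongs to the cupredoxins, copper-binding proteins of the plastocyanin type that plants place at the cell surface. It had 81.1, 89.1 and 76.8 in Cs shoots and 50.0, 72.5 and 49.7 in control shoots, and 223, 213 and 220.4 in Cs roots and 139, 136 and 151 in control roots. The groups did not overlap in either tissue, and the Cs roots lay close together. The shared difference was 0.53 ± 0.0859 (SE, n = 6 pairs, adjusted p = 0.143). A second cupredoxin, AT1G72230, had one of the largest shared differences, 0.84 ± 0.247 (SE, n = 6 pairs, adjusted p = 0.523), but it rests on uneven pairs. Its signals were 65.7, 39.2 and 67.2 in Cs shoots, against 39.4, 30.1 and 5.73 in control shoots, so that shoot pair 3 alone differed by 2.23 and the root pair 2 by 0.14.

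AT3G54040, which encodes a PAR1-type protein, was a root transcript in these plants. It had 1355, 1524 and 1900 in Cs roots, against 1019, 1154 and 1265 in control roots, and 30.1, 56.5 and 116 in Cs shoots, against 20.7, 34.2 and 52.2 in control shoots. The root groups did not overlap and the shoot groups did. Its shared difference was 0.56 ± 0.0949 (SE, n = 6 pairs, adjusted p = 0.152).

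Genes for secreted hydrolases were found on both sides. The serine carboxypeptidase gene scpl48 (AT3G45010), whose product belongs to a family of vacuolar and secreted peptidases and acyltransferases, had 128, 106 and 133 in Cs shoots, against 85.9, 85.5 and 100.0 in control shoots, and 194, 224 and 223 in Cs roots, against 114, 173 and 165 in control roots. Neither tissue overlapped, and the shared difference was 0.44 ± 0.0863 (SE, n = 6 pairs, adjusted p = 0.231). The subtilisin-like protease gene AT4G10550 was higher in all pairs (shared difference 0.42, adjusted p = 0.365), whereas another gene of that protease family, AT4G30020, was lower (-0.35, adjusted p = 0.402). In root pair 2 the AT4G30020 signals were 166 in Cs and 166 in control, so that this pair counts as lower only by its decimals.

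Other transcripts higher in 6 of 6 pairs had adjusted p-values of 0.299 to 0.402. They include AT3G60450, of the phosphoglycerate mutase family (0.42), AT3G25950, which carries a TLC lipid-sensing domain (0.68), the peroxidase gene AT4G33420 (0.39) and HRGP1, which encodes a hydroxyproline-rich glycoprotein of the extensin type (0.42). The HRGP1 probe set is of a kind that can also bind transcripts of related genes. AT1G03660 (0.46), AT5G24230 (0.43) and AT1G52720 (0.28) complete the list by the naming rule together with AT4G22212. AT1G52720 had the evenest pairs of these, between 0.21 and 0.37.

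AT4G22212, which encodes a defensin-like peptide, a small secreted cysteine-rich protein, was uneven between tissues. It had 18.8, 129.7 and 225 in Cs shoots, against 3.86, 56.6 and 94.6 in control shoots, and 3029, 2664 and 3014 in Cs roots, against 1646, 2566 and 3013 in control roots. Root pair 3 differed by 0.00 and root pair 1 by 0.88. The shared difference was 0.69 ± 0.156 (SE, n = 6 pairs, adjusted p = 0.299), with a mean of 1.07 over shoot pairs and 0.31 over root pairs. The difference between these means had an unadjusted p of 0.00648 and an adjusted p of 0.769 in limma. It is a root transcript by its level, and the root-enriched list as a whole was brighter in Cs shoots, with the limits given above. The part of that list in this gene's value was not tested.

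**Figure D2:**
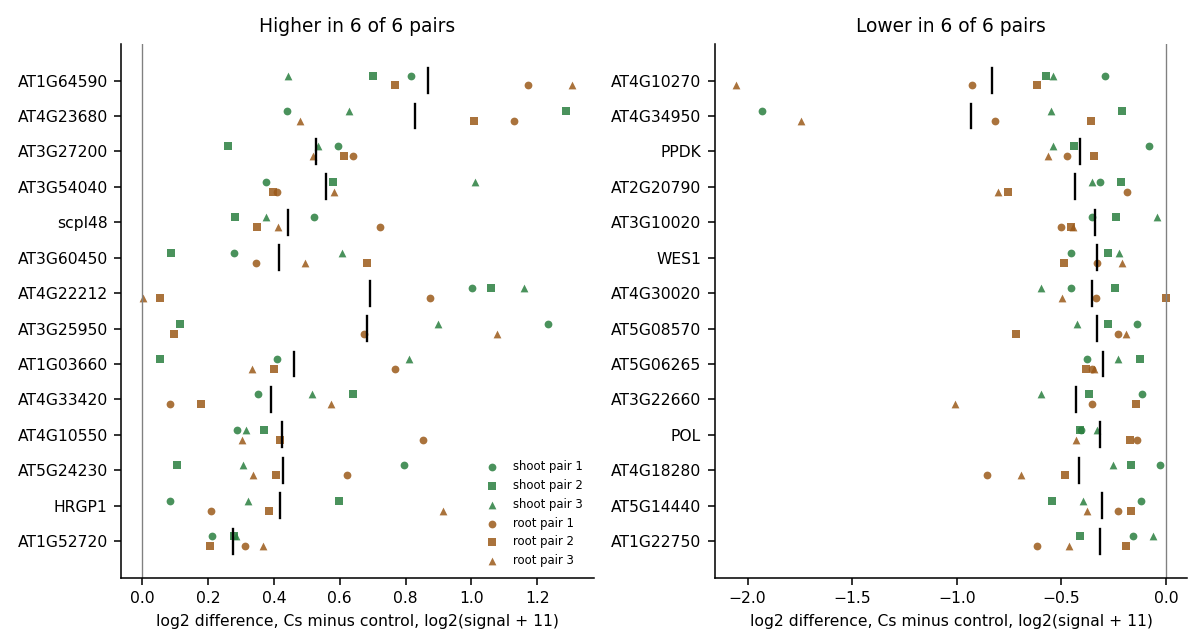
Cs minus control differences on the log2(signal + 11) scale (horizontal axis) for each of the 6 pairs of the 14 genes named as higher (left) and the 14 named as lower (right), shoot pairs in green and root pairs in brown, with the shared difference as a black bar. AT1G52720 has its pairs close together, as has AT3G27200 apart from shoot pair 2, at 0.26 with the next pair at 0.52. AT4G10270 runs from -0.29 to -2.05.

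On the lower side, AT4G10270 stood first by p. It encodes a small wound-responsive family protein whose transcript is a well-known marker of low oxygen in Arabidopsis. Its signals were 743, 313 and 136 in Cs roots, against 1423, 485 and 599 in control roots, and 35.9, 27.2 and 47.5 in Cs shoots, against 46.3, 45.8 and 73.9 in control shoots. Each Cs array lay below its own control, but the groups overlapped because the controls themselves varied widely in roots. Over all pairs the difference was -0.83 ± 0.186 (SE, n = 6 pairs, adjusted p = 0.299), from -0.29 in shoot pair 1 to -2.05 in root pair 3. Without root pair 3 it was -0.59.

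AT4G34950, a transporter-like gene of the major facilitator superfamily, had the largest lower difference among the genes bright in both tissues, -0.93 ± 0.211 (SE, n = 6 pairs, adjusted p = 0.299). It had 10.4, 295 and 199.6 in Cs shoots, against 70.7, 343 and 297 in control shoots, and 161, 97.6 and 26.7 in Cs roots, against 292, 128 and 115 in control roots. Shoot pair 1 and root pair 3 carried most of it, with -1.93 and -1.74, against -0.21 in shoot pair 2 and -0.36 in root pair 2. The groups overlapped in both tissues.

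A pair of genes for enzymes at the pyruvate step of carbon metabolism were lower in all pairs. PPDK, pyruvate orthophosphate dikinase, which turns pyruvate into phosphoenolpyruvate, had 203, 112 and 94.3 in Cs shoots, against 215, 156 and 142 in control shoots, and 27.0, 34.3 and 21.5 in Cs roots, against 41.8, 46.6 and 37.0 in control roots. The root groups did not overlap. Its shared difference was -0.41 ± 0.096 (SE, n = 6 pairs, adjusted p = 0.361). AT5G08570, a pyruvate kinase gene whose enzyme works in the opposite direction, had 259, 299.8 and 213 in Cs shoots, against 286, 366 and 290.0 in control shoots, and 418, 264 and 333 in Cs roots, against 493, 441 and 382 in control roots, a shared difference of -0.33 ± 0.0892 (SE, n = 6 pairs, adjusted p = 0.453) with overlap in both tissues.

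POL, the POLTERGEIST protein phosphatase of stem cell signalling in meristems, was among the most even of the lower genes. It had 47.4, 47.5 and 47.2 in Cs shoots, against 66.4, 66.8 and 62.1 in control shoots, and 123, 127 and 119.7 in Cs roots, against 136, 145 and 165 in control roots. Neither tissue overlapped, and the shared difference was -0.31 ± 0.0876 (SE, n = 6 pairs, adjusted p = 0.471). AT5G06265 also had no overlap in either tissue, with a shared difference of -0.30 (adjusted p = 0.458).

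WES1 (GH3.5), an enzyme that joins amino acids to auxin and salicylic acid, had 56.9, 60.0 and 73.8 in Cs shoots, against 81.9, 74.9 and 88.1 in control shoots, and 181, 118 and 142 in Cs roots, against 230.5, 170.0 and 166 in control roots. The shoot groups did not overlap and the root groups did. Its shared difference was -0.33 ± 0.0837 (SE, n = 6 pairs, adjusted p = 0.402).

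Of the other lower genes, AT3G10020, a gene of unknown function that responds to low oxygen, had a shared difference of -0.34 (adjusted p = 0.375). AT2G20790, an adaptor subunit gene of vesicle traffic, had -0.44 (adjusted p = 0.375), and AT3G22660, a gene for ribosomal RNA processing, had -0.43 (adjusted p = 0.471). AT4G18280 (-0.41), AT5G14440 (-0.31) and AT1G22750 (-0.32) all had an adjusted p of 0.515. For AT4G18280 the root pairs averaged -0.68 and the shoot pairs -0.15 (interaction unadjusted p = 0.0175, adjusted p = 0.769, limma).

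**Figure D3:**
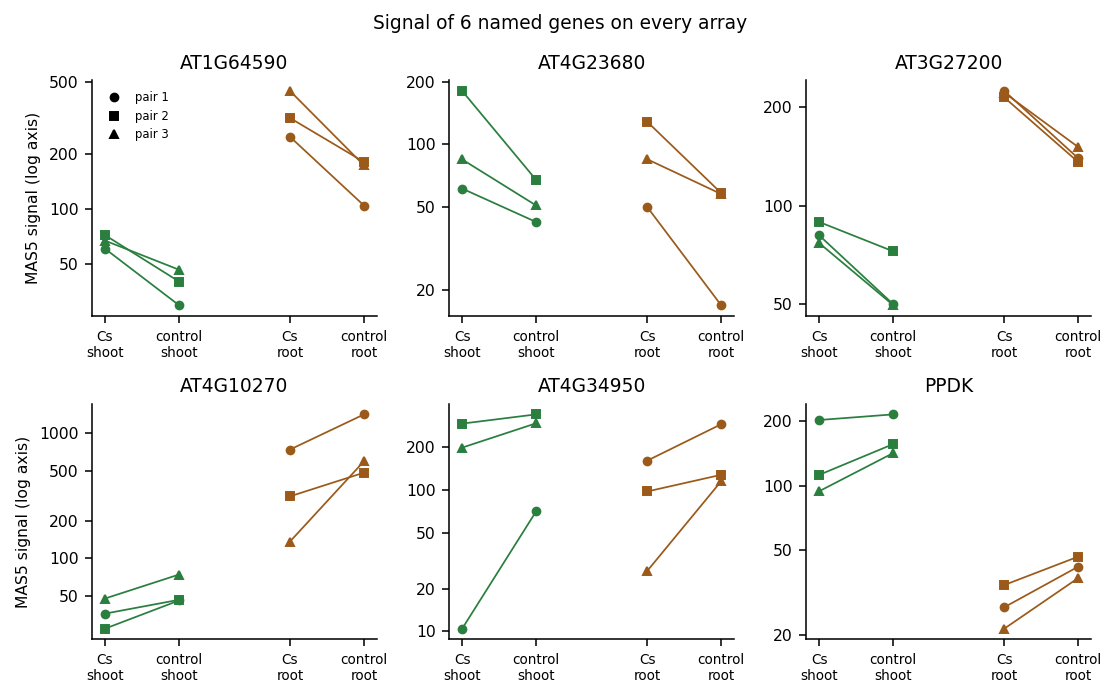
MAS5 signal (log axis) of 6 named genes on all 12 arrays, with Cs left of control in each tissue and a line joining the arrays of a pair (circle, square and triangle for pairs 1, 2 and 3). Every line falls to the right for AT1G64590, AT4G23680 and AT3G27200 and climbs for AT4G10270, AT4G34950 and PPDK, while the height of the pairs differs.

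Some genes went one way in 5 of 6 pairs. MT1C, a metallothionein that binds metal ions through cysteines, had 1356, 1177 and 1431 in Cs shoots, against 829.8, 862 and 964 in control shoots, and 4242, 4222 and 4242 in Cs roots, against 3576, 3588 and 4316 in control roots. Root pair 3 was the exception, at -0.02. Its shared difference was 0.36 ± 0.0948 (SE, n = 6 pairs, adjusted p = 0.412). AT3G15640, a subunit 5b gene of mitochondrial cytochrome c oxidase, was at 0.53 (adjusted p = 0.402) with root pair 2 as the exception. AT5G11650, a monoacylglycerol lipase-type gene, was at 0.58 (adjusted p = 0.299), and AT5G07080, an acyltransferase gene, at 0.36 (adjusted p = 0.412).

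On the lower side with 5 of 6 pairs, ARL, an ARGOS-like gene that promotes cell expansion, was at -0.56 (adjusted p = 0.453). UF3GT, which adds a sugar to anthocyanins, was at -0.48 (adjusted p = 0.523), AT5G65250 at -0.39 (adjusted p = 0.453) and AT2G16365, the light signalling gene PCH1, at -0.45 (adjusted p = 0.534). UF3GT had 114, 23.3 and 38.5 in Cs shoots, against 232, 31.6 and 64.0 in control shoots, with pair 1 the brightest of both groups. In roots it had 34.1, 31.4 and 35.4 in Cs plants, against 68.8, 26.8 and 49.4 in controls, so root pair 2 was the exception.

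Several of the strongest probe sets name no gene in the annotation used. Probe set 245567_at had 643, 1674 and 1859 in Cs roots, against 339, 664 and 906 in control roots, and 9.81, 30.9 and 91.9 in Cs shoots, against 2.90, 12.9 and 15.2 in control shoots. It was higher in 6 of 6 pairs, with a shared difference of 1.10 ± 0.152 (SE, n = 6 pairs, adjusted p = 0.0992), although it was dim in shoots and the root groups overlapped. Probe set 253191_at was higher (0.50, adjusted p = 0.127), and 266415_at (-0.67, adjusted p = 0.127) and 253722_at (-0.44, adjusted p = 0.272) were lower in all pairs.

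Gene groups were then described by counts, beside the same counts over all tested probe sets, for which the median shared difference was 0.01. The lists in the next 4 paragraphs were written out by locus after values of these data had been seen, so their counts describe the lists and are not independent evidence of a direction. Genes named there outside the naming rule were chosen after their values were seen.

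The low-oxygen response genes, a list written out after values were seen, had the lowest median of the groups with at least 5 tested members. Plants switch these genes on when group VII ethylene response factors are no longer degraded for want of oxygen, and they serve fermentation and energy saving. Of 48 loci on the list, 22 were tested. None passed the adjusted threshold, 20 had a lower and 2 a higher mean in Cs plants (47.1% of all tested had a lower and 52.9% a higher mean), and 14 had an unadjusted p under 0.05, all lower (2.79% of all tested probe sets were lower at that level). The median shared difference was -0.43. It was -0.13 over the shoot pairs and -0.76 over the root pairs, and all 22 had higher signals in roots than in shoots. The pair medians were 0.04, -0.15 and -0.24 in shoot pairs 1, 2 and 3 and -0.76, -0.47 and -1.02 in the root pairs.

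Lower in 6 of 6 pairs were 4 of the 22 (1.79% of all tested), AT4G10270, AT4G33560, AT3G10020 and AT1G19530. Of the 22, 12 were bright in both tissues, and 2 of these were lower in 6 of 6 pairs (2.09% of all bright in both). AT4G33560, like AT4G10270 a wound-responsive family gene, had 300.4, 114 and 48.8 in Cs roots, against 654, 181 and 169 in control roots, and only 7.61, 1.40 and 1.80 in Cs shoots, against 14.2, 2.62 and 6.57 in control shoots. Its shared difference was -0.72 ± 0.171 (SE, n = 6 pairs, adjusted p = 0.361). AT1G19530 was even in roots, with 707, 647 and 746 in Cs plants, against 1290, 1484 and 1254 in controls, and differed little in shoots, where its pairs were -0.11, -0.07 and -0.07. Leaving those 4 genes out, 16 of the other 18 had a lower mean, with a median of -0.42. PDC2, a pyruvate decarboxylase of fermentation, had 235, 238 and 207 in Cs roots, against 526, 418 and 291 in control roots, and 33.5, 251 and 257 in Cs shoots, against 33.0, 234 and 331 in control shoots, so that the shoots differed little. Leaving out single pairs moved the list's median between -0.53 and -0.33.

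Class III peroxidases, which use hydrogen peroxide in the wall to crosslink phenolics and proteins or loosen polymers, were tested at 39 of 73 listed loci. Of these, 32 had a higher and 7 a lower mean in Cs plants, against 52.9% and 47.1% of all tested. At an unadjusted p under 0.05, 9 were higher and 1 was lower (4.91% and 2.79% of all tested). The median shared difference was 0.13. The pair medians were -0.02, 0.01 and 0.28 in shoot pairs 1, 2 and 3 and 0.02, 0.23 and 0.36 in the root pairs, so that 3 of the pairs lay near 0. Higher in 6 of 6 pairs were 3 (2.93% of all tested), AT4G33420, AT2G41480 and AT5G17820. Of the 39, 16 were bright in both tissues, and 1 of these was higher in 6 of 6 pairs (2.7% of all bright in both). AT2G41480 had 246, 238 and 223 in Cs roots, against 145, 159 and 146 in control roots, and 33.3, 32.1 and 28.6 in Cs shoots, against 21.2, 24.4 and 27.3 in control shoots. Neither tissue overlapped, and the shared difference was 0.44 ± 0.105 (SE, n = 6 pairs, adjusted p = 0.361). AT5G17820 was at 0.52 ± 0.125 (SE, n = 6 pairs, adjusted p = 0.361), with 874, 853 and 967 in Cs roots, against 684, 677 and 694 in control roots, and dim shoot signals. Of the other 36, 29 had a higher mean, with a median of 0.12. The list spans both directions, since AT1G49570 was at -0.37 and AT3G03670 at 0.70. Of the 39, 8 belong to the root-enriched list, and the part of that list's brightness in Cs shoots in these values was not tested.

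Extensins are hydroxyproline-rich proteins that peroxidases crosslink into the wall, and their genes are typical of root hairs. Of 10 tested, 9 had a higher mean in Cs plants (52.9% of all tested), 7 had an unadjusted p under 0.05, all higher (4.91%), and 2 were higher in 6 of 6 pairs (2.93%). The median was 0.41, with 0.16 over shoot pairs and 0.53 over root pairs. The pair medians were -0.05, 0.13 and 0.36 in shoot pairs 1, 2 and 3 and 0.24, 0.61 and 0.90 in the root pairs, so that shoot pair 1 did not go with the rest. AT1G26250 had 1084, 2144 and 1963 in Cs roots, against 1027, 1058 and 1053 in control roots, and 20.2, 51.3 and 57.0 in Cs shoots, against 15.7, 11.3 and 31.0 in control shoots. It was higher in 6 of 6 pairs, as was HRGP1, with a shared difference of 0.73 ± 0.157 (SE, n = 6 pairs, adjusted p = 0.299), though root pair 1 differed by 0.08 only. Its neighbour on the chromosome, AT1G26240, was at 0.77 with 5 of 6 pairs. Of the 10 extensin genes, 5 were bright in both tissues, and 1 of these was higher in 6 of 6 pairs (2.7% of all bright in both). Extensin genes share repeats, so their probe sets may share signal. The wider group of cell wall proteins and enzymes, taken from words in the gene names, was tested at 28 members. Of these 18 had a higher and 10 a lower mean (52.9% and 47.1% of all tested). In 6 of 6 pairs 1 was higher and 1 lower (2.93% and 1.79% of all tested), and the median was 0.05.

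Jacalin-related lectins, sugar-binding proteins of which many are root proteins, had 11 of 14 tested members with a higher mean (52.9% of all tested) and a median of 0.11. In roots alone 8 of the 14 had a higher mean, and the members ran from -0.50 to 0.52. At an unadjusted p under 0.05, 4 were higher and 1 was lower (4.91% and 2.79% of all tested). Higher in 6 of 6 pairs were 2 (2.93% of all tested), AT1G52060 and its chromosomal neighbour AT1G52050. Neither was bright in both tissues, and AT1G52060 fell short in shoots. Of the 14 members, 6 were bright in both tissues, and 0 of these were higher in 6 of 6 pairs (2.7% of all bright in both). AT1G52060 had 316, 461 and 625 in Cs roots, against 242, 312 and 499.8 in control roots, and 26.3, 27.0 and 38.2 in Cs shoots, against 15.2, 9.52 and 23.8 in control shoots, a shared difference of 0.52 ± 0.095 (SE, n = 6 pairs, adjusted p = 0.176) with no overlap in shoots. AT1G52050 was at 0.39 ± 0.104 (SE, n = 6 pairs, adjusted p = 0.453). The cytosolic ribosomal proteins, which form the protein-making particles of the cytosol, had 95 of 118 tested members with a lower mean (47.1% of all tested), but by little. Their median was -0.06, 5 had an unadjusted p under 0.05, all lower (2.79% of all tested), and 6 (1.79% of all tested) were lower in 6 of 6 pairs. The pair medians lay on both sides of 0, at 0.03, -0.14 and 0.02 in shoot pairs 1, 2 and 3 and 0.04, -0.12 and -0.19 in the root pairs. Of these AT2G37600, a large-subunit gene, was at -0.22 (adjusted p = 0.557), AT5G35530, a small-subunit gene, at -0.15 (adjusted p = 0.641) and AT2G41840 at -0.14 (adjusted p = 0.663). Quantile normalization put the ribosomal median at -0.04 with 3 lower in all pairs, and centring the arrays on their medians put it at -0.10 with 11, when the median of all probe sets was -0.01 and -0.03. Over 5 pairs the count was 11 without shoot pair 1, 13 without root pair 1 and 6 to 9 without any other single pair.

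**Figure D4:**
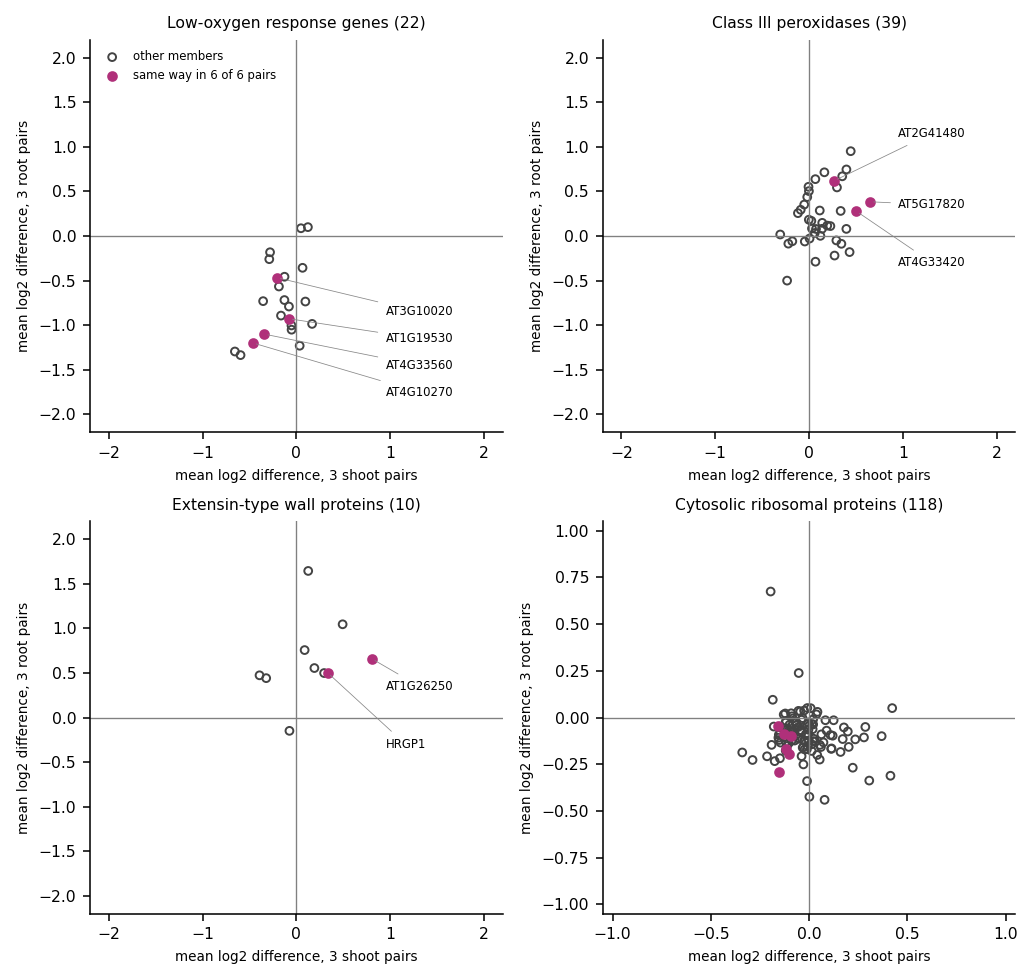
Mean log2 difference, Cs minus control, over the 3 shoot pairs (horizontal axis) and the 3 root pairs (vertical axis) for the members of 4 gene lists, with members that went the same way in 6 of 6 pairs filled. In roots 20 of 22 low-oxygen genes lie below 0, 9 of 10 extensins above 0 and 103 of 118 ribosomal proteins, on a narrower scale, slightly below 0.

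The other gene groups were taken from words in the RefSeq gene names, and because most Arabidopsis loci carry no such name they are small. Matching by words also drew in a few misfits, such as AT5G55580 among the WRKY, NAC and ERF factors and HDA15 among the histones. CCS was counted both among the antioxidant enzymes and among the chaperones. Of 30 such groups, 6 had no tested member and 20 had at least 3. Together they hold 210 probe sets, of which 22 had an unadjusted p under 0.05 (7.71% of all tested). Of the 210, 6 were higher and 2 lower in 6 of 6 pairs (2.93% and 1.79% of all tested). The 8 were the copper chaperone gene CCS, HRGP1, AT2G41480, CYP71B37, UGT76E11 and SWEET16 on the higher side and EXPB3 and UBC29 on the lower.

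CCS, which delivers copper to copper/zinc superoxide dismutases, had 50.6, 55.3 and 60.5 in Cs shoots, against 40.4, 48.0 and 48.2 in control shoots, and 125, 72.8 and 95.1 in Cs roots, against 64.5, 57.7 and 43.5 in control roots. Neither tissue overlapped, and the shared difference was 0.47 ± 0.127 (SE, n = 6 pairs, adjusted p = 0.453). The other 4 tested antioxidant enzymes had lower means, and the group's median was -0.05. CYP71B37, a cytochrome P450, was at 0.45 (adjusted p = 0.543) and UGT76E11, a glucosyltransferase of flavonols, at 0.39 (adjusted p = 0.542), both dim in one tissue. With a pseudocount of 44 in place of 11 CYP71B37 was at 0.23 and UGT76E11 at 0.17, and with 2.75 they were at 0.66 and 0.80. SWEET16, a vacuolar sugar carrier, was at 0.20 (adjusted p = 0.689), and at 0.12 without shoot pair 2. EXPB3, an expansin that loosens walls, was at -0.14 (adjusted p = 0.703), and UBC29, a ubiquitin-conjugating enzyme, at -0.20 (adjusted p = 0.557).

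The DNA repair genes given here include none that went the same way in 6 pairs. UNG, a uracil-DNA glycosylase that starts base excision repair, was at -0.17 ± 0.142 (SE, n = 6 pairs, limma adjusted p = 0.819), lower in 4 of 6 pairs. RECQ4A, a helicase that acts in recombination, was at 0.08 ± 0.145 (SE, n = 6 pairs, limma adjusted p = 0.921), and ATLIG4, the DNA ligase that seals breaks in end joining, at 0.02 ± 0.114 (SE, n = 6 pairs, limma adjusted p = 0.977), each with 3 pairs higher and 3 lower. DRT100 was at 0.10 and DRT101 at 0.02, both higher in 4 of 6 pairs. The words that chose this group matched few genes. Many well-known radiation markers were not among them and are not described here.

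Glutathione transferases, which conjugate oxidised and foreign compounds, had 11 members tested, none the same way in 6 pairs, and a median of 0.04. Thioredoxins and glutaredoxins, 10 members, had a median of -0.01. Cation transport was covered by 1 gene, the cation/proton exchanger CHX20, at 0.02 (95% interval -0.31 to 0.35). The flavonoid genes tested were DFR, UF3GT and CHIL, a group too small to be drawn with the others, all with lower means and a median of -0.48, none of them in 6 of 6 pairs.

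The photosynthesis genes show how one pair can carry a group. Their 9 members had a median of 0.23, of which root pair 2 supplied a pair median of 1.76, whereas the other pair medians lay between -0.40 and -0.03. Without root pair 2 the median was -0.11. The Cs root of that pair is the root array with the highest shoot marker sum, but 4 of the 7 summed markers are themselves members of this group. The 3 markers outside it summed to 1492 in that Cs root, against 122 in its control, and to 150.4 to 457 in the other 4 roots. PIFI, a chloroplast protein gene, had 18.6, 77.1 and 24.7 in Cs roots, against 17.1, 19.4 and 17.2 in control roots.

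**Figure D5:**
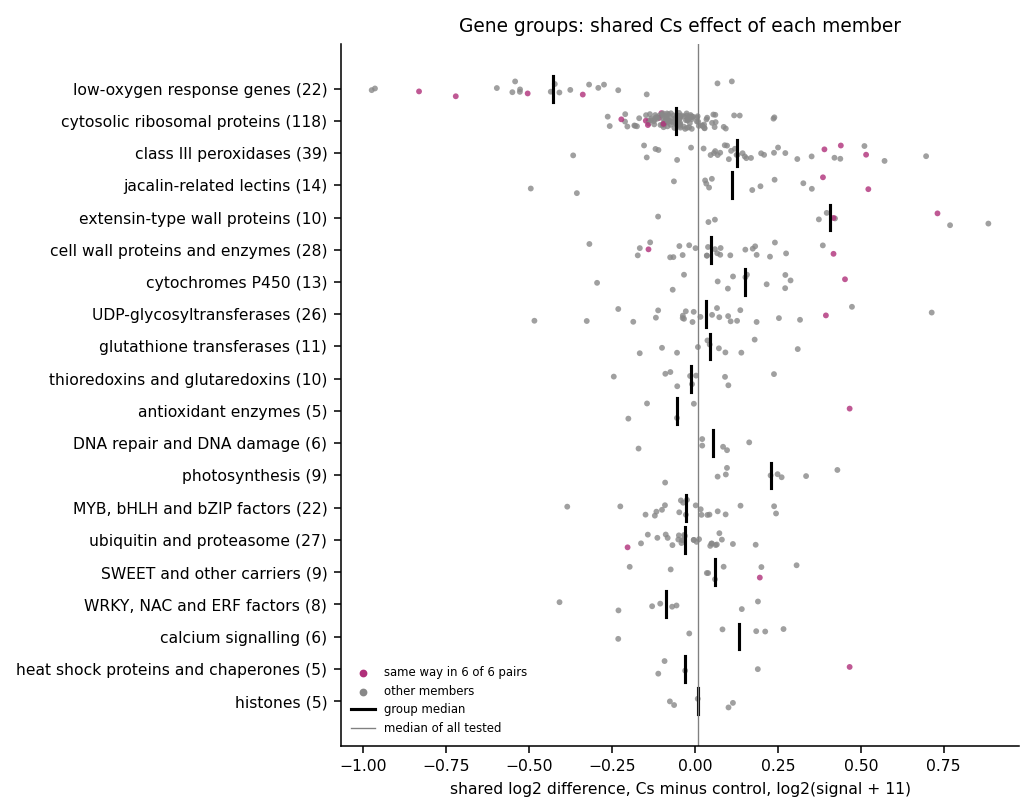
Shared log2 difference, Cs minus control (horizontal axis), of every tested member of the 20 gene groups with at least 5 tested members, the number tested in brackets. Among the groups drawn the low-oxygen genes have the lowest median, -0.43, and the extensins the highest, 0.41. Both lists were written out after values of these data were seen, so these ranks are not independent evidence of a direction. DNA repair, glutathione transferase and thioredoxin genes lie around the median of all tested probe sets.

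The last comparison asked whether the pairs resembled each other as whole profiles and whether the tissues differed. Over the 15508 probe sets, the correlation between the differences of any 2 pairs, which share no array, ran from -0.06 to 0.21. It was highest between root pairs 1 and 3 (0.21), and shoot pair 3 and root pair 3 had 0.15. The SD of the 6 pair differences was 0.27 for the median probe set, against a median absolute shared difference of 0.09. The difference between the root and the shoot effect had 0 probe sets past the adjusted threshold in limma, 958 at an unadjusted p under 0.05 (6.18%) and a smallest adjusted p of 0.0687. A root effect that differs from the shoot effect was therefore not established for any probe set, which does not show that the tissues responded alike.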

How the data were processed

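Total RNA was the source material, biotin was the label, and 12 Affymetrix ATH1 arrays were hybridised, 3 per group. The deposited values are MAS5 signal intensities on a linear scale, 1 per probe set and array (MAS5 per the submitters' processing notes, version not given in the sources used here). The 2% trimmed mean of every array was 100.0, and no 2 arrays held identical values. No column was left unused. Probe sets were named from the platform annotation, in which 13513 name 1 gene, 503 several and 8730 are not listed. Symbols came from the TAIR10.1 RefSeq table (13436 matched). Family names of loci without a symbol are general knowledge. No source used here names the array's genome build, so no coordinates are printed. Not every gene that the naming rule took is reported here.

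Intensities were taken as log2(signal + 11). Probe sets were tested if their mean reached the 40th percentile of at least 1 tissue (signals of 28.0 in shoot and 31.2 in root). Limma 3.58.1 in R 4.3.3 (lmFit, then eBayes with trend) had the 6 pairs as blocks. Benjamini-Hochberg adjustment ran over all tested probe sets. A second fit added a term for the difference between tissues. The steps were tested on simulated data.

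Same-numbered Cs and control arrays deviated together from their group means with correlations of 0.71, 0.41 and 0.45 in shoots. In roots the correlations were 0.47, -0.02 and 0.40, so the root numbers are not shown to pair the arrays. Shoot numbers 2 and 3 were less clearly told apart than number 1. Cs shoot 2 had 0.37 with control shoot 3, and Cs shoot 3 had 0.20 with control shoot 2. Cs shoot 1 had -0.43 and -0.58 with control shoots 2 and 3.

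The naming rule took the 14 probe sets with the smallest p in each direction among those with 6 concurring pairs, 1 gene and enough signal in both tissues, 4 in each direction with 5 pairs, the 4 largest, up to 3 members per gene group, and 2 unnamed probe sets in each direction. Members, lists and rule were chosen with earlier results of these data known, and 5 lists were written out after values were seen. Alternatives were the block, pseudocount, filter, normalization, intensity trend, array weights and leaving out pairs.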

Additional observations from a re-analysis of the deposited data

Results flagged for a closer look

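Among 70 named probe sets, 7 had a pair whose difference stood far from the other 5 pairs by Dixon's criterion, which chance passes in about 1 of 20 groups. AT4G10270 was at -2.05 in root pair 3, the next pair being at -0.93. AT4G10550 was at 0.85 in root pair 1 with the others up to 0.42, and AT3G54040 at 1.01 in shoot pair 3 with the others up to 0.58. AT3G27200 was at 0.26 in shoot pair 2, below the other pairs, which began at 0.52. In root pair 2, CHX20 was at 0.59, PIFI at 1.54 and the ribosomal protein gene AT5G35530 at -0.30. Root pair 2 holds the Cs root with the highest shoot marker sum, and its part in these values was not tested.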

How the results depend on the processing

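The fit with no replicate block, with tissue and exposure only, also called 0 probe sets and had 525 at an unadjusted p under 0.05, against 1195 with the pairs as blocks. Pairs as a random effect gave 0 calls and 1077 at that level. When only probe sets bright in both tissues were tested, 1 probe set passed, AT1G64590. Leaving out 1 pair at a time gave 0 to 7 calls, all higher in Cs plants. The 7 came without shoot pair 1 and included the peroxidase gene AT3G03670 and the chitinase gene CHI, and without root pair 2 there was 1, the unnamed 266165_at with an adjusted p of 0.00506. Counts over 5 pairs were 693 to 828 higher and 447 to 576 lower in all pairs, fewer pairs being easier to satisfy. Leaving out both pairs numbered 1, chosen after seeing the data, gave 0 calls, 1308 higher and 1122 lower. Array-median centring gave 243 higher and 542 lower in all pairs. CHX20, at 0.02, was below 0 with a pseudocount of 44 (-0.00252), quantile normalization (-0.0207), the same within tissues (-0.0131), centring (-0.0173), array weights (-0.00367) and without root pair 2, single pairs left out giving -0.0916 to 0.0702. HDA15, at 0.10, was at -0.0857 without both pairs numbered 1. The causes were not tested. Of 1246 values of named probe sets under alternatives, 1237 kept their direction and side of the threshold. Many of these probe sets were chosen because all their pairs concurred. For them, leaving out pairs or changing the pseudocount, filter, trend or block could not reverse the direction. No probe set passed the threshold in the main fit, so the side could change only by passing. The count was therefore partly fixed in advance and does not measure robustness. AT1G64590 and 245567_at passed the threshold once each.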
